A study of Arabidopsis thaliana with 4 samples.

Results

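Transcript levels in seedlings of the Arabidopsis thaliana mutant zop1 were set against those of the wild type C24, the accession in which the mutants were studied. Each genotype was sequenced as 1 library, so the comparison uses 2 of the 4 libraries, and 19240 of the 34133 loci in the table entered it because their FPKM averaged 1 or more over the 4 libraries. FPKM count the fragments of a transcript for each kilobase of its length, scaled to 1000000 mapped fragments. The other libraries are the mutants prp31 and sta1, and the series title ties the splicing factor PRP31 to transcriptional gene silencing and to stress. All seedlings were 10 days old and grew on agar plates of MS medium at 23 °C under a day of 16 h light and 8 h dark, and mRNA was taken with oligo(dT) beads. The labels name the zop1, prp31 and sta1 genotypes without an allele, and they give no number of plants per library. No value has a replicate check: differences describe these libraries, with no test and no p-value.

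ZOP1 is a nucleic-acid-binding protein with a zinc finger, linked in Arabidopsis to pre-mRNA splicing and to RNA-directed DNA methylation, the pathway that silences transposons and transgenes. PRP31 and STA1 are proteins of the spliceosome, the complex that removes introns from pre-mRNA. Mutants of splicing factors are known for altered responses to cold, salt, hormones and pathogens.

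Differences are given as log2(FPKM + 1) in zop1 minus the same in C24, and a locus is called higher or lower when that difference reached 1 in size, named here the 2-fold rule. Folds of single genes are ratios of FPKM, so a low gene can have a fold above 2 and still miss the rule. Where whole reads could be recovered from the table, an exact 95% binomial interval of the fold follows it in square brackets, which covers counting error alone.

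The targeted gene was examined first. ZOP1 (AT1G49590) had 7.99 FPKM in zop1, 12.8 in prp31, 15.02 in sta1 and 14.1 in C24. It was 1.76-fold lower in zop1 than in C24, a difference of -0.75 that missed the 2-fold rule, and zop1 was the lowest of the 4 libraries. PRP31 had 25.1 FPKM in zop1 against 23.2 in C24, and STA1 had 15.6 FPKM in zop1 against 14.1 in C24. The label seedling was set against markers. Of the photosynthesis genes 18 of 19 had a mean of at least 1 FPKM, as did 10 of 12 root markers and 5 of 14 seed and embryo markers. A library of whole seedlings mixes tissues, so fewer cells of a type and less RNA per cell cannot be told apart.

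Few loci differed by the rule. Of the 19240 loci, 184 (0.956%) were higher in zop1 and 247 (1.28%) were lower, the median difference was -0.02, and 53.2% lay below 0. Among 18518 protein-coding loci with a transcript of at least 300 nt, 121 (0.653%) were higher and 190 (1.03%) lower, the SD of the differences across loci was 0.33, and 93.6% lay within 1.5-fold. At the edge of the rule, the differences just inside and just outside were 1.012 and 0.998 for higher loci and -1.001 and -0.998 for lower ones. The other called loci were short or not protein-coding (63 higher and 57 lower). Of these, 30 of the higher and 38 of the lower loci were listed at 0 in 1 of the 2 libraries. The short or not protein-coding loci are thus counted here and, apart from the defensin-like locus AT3G13403 below, not described. Reads were recovered for 90 of the higher protein-coding loci, with a median of 408 reads over zop1 and C24, and the interval excluded 1 for 81 of them. They were recovered for 158 of the lower ones, with a median of 536.5 reads, and the interval excluded 1 for 145. The called loci were picked by the same values of these libraries, so these counts do not check the calls. No such share was computed over all loci.

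**Figure D1:**
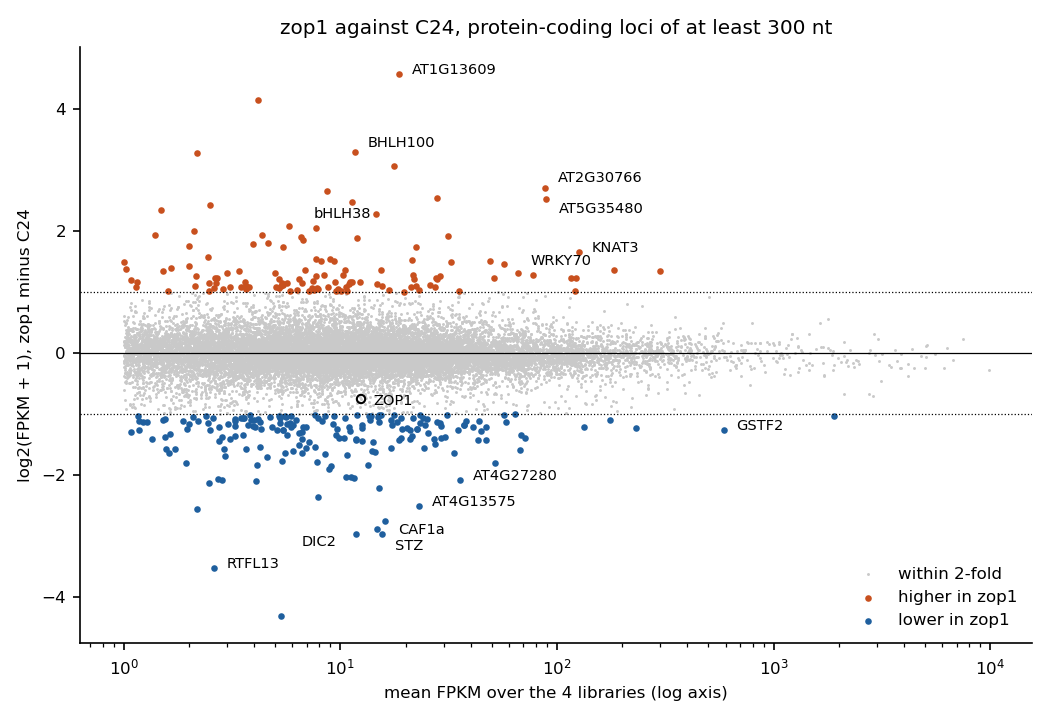
Each point is a protein-coding locus of at least 300 nt, with its mean FPKM over the 4 libraries on a log axis across and its difference on the log2(FPKM + 1) scale, zop1 minus C24, up the page. Orange marks the 121 loci higher in zop1, blue the 190 lower ones, grey the rest, and a circle marks ZOP1 at -0.75.

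Genes of the response to iron deficiency had the highest medians of the gene lists. The subgroup Ib bHLH factors are transcription factors that are induced when iron is short and that pair with FIT to switch on iron uptake in roots. Of 4 listed members 3 passed the filter, and all 3 were higher in zop1, with a median difference of 2.29, against -0.02 over all loci. BHLH101, which missed the filter, had 1.52 FPKM in zop1, 0.177 in prp31, 1.61 in sta1 and 0.196 in C24. BHLH100 (AT2G41240) had 19.6 FPKM in zop1, 1.299 in prp31, 24.96 in sta1 and 1.08 in C24, which is 18.1-fold higher in zop1 than in C24. bHLH38 (AT3G56970) had 22.4 FPKM in zop1, 2.98 in prp31, 29.3 in sta1 and 3.79 in C24 (5.91-fold higher [4.90 to 7.19]). bHLH39 (AT3G56980) had 9.62 FPKM in zop1, 2.01 in prp31, 13.3 in sta1 and 1.94 in C24 (4.96-fold higher [3.74 to 6.68]). In each of the 3 genes, zop1 and sta1 were the high libraries and prp31 and C24 the low ones.

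The 250 bases before the start of BHLH100 (chr2:17199455-17199704, minus strand) and bHLH38 (chr3:21085246-21085495, minus strand) are shown because these genes, high in the same libraries, share a motif there that bHLH39 lacks. The sequences are from RefSeq, build TAIR10.1, read in the direction of the gene. Capitals mark CACGTG, a sequence that bHLH and bZIP factors are known to bind, which stood 91 bases before the start of BHLH100 and 97 bases before that of bHLH38.
BHLH100: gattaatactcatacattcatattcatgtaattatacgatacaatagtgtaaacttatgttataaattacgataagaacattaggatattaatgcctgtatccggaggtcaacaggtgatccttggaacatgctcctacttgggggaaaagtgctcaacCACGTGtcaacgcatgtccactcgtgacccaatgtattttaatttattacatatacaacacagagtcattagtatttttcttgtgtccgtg
bHLH38: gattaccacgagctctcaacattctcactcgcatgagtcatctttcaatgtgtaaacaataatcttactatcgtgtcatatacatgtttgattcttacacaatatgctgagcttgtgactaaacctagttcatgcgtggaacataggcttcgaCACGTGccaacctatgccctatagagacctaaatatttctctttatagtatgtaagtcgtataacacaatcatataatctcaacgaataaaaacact
Searched on both strands, CACGTG stood in these 250 bases at 13 of the 121 higher loci (10.7%) and 14 of the 190 lower loci (7.37%), against 7.43% of the 18518 loci. A match is a description of the letters and not a measured site.

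A second iron list held 4 loci that the annotation gives as uncharacterized proteins, AT2G30766, AT1G47400, AT1G47395 and AT2G14247, and all 4 were higher in zop1 (median 2.69). AT2G30766 had 142 FPKM in zop1, 40.1 in prp31, 150.5 in sta1 and 20.8 in C24 (6.82-fold higher). AT2G14247 had 32.2 FPKM in zop1, 3.36 in prp31, 32.2 in sta1 and 2.93 in C24 (11.0-fold higher [7.94 to 15.6]). AT1G47400 had 14.5 FPKM in zop1 against 1.45 in C24 (10.0-fold higher [6.19 to 17.1]), and its neighbour AT1G47395 had 41.7 FPKM in zop1 against 6.29 in C24 (6.62-fold higher [4.93 to 9.05]). As in the bHLH genes, prp31 lay closer to C24 and sta1 closer to zop1. C24 was the lowest of the 4 libraries for all 4 loci and for 2 of the 3 bHLH genes, as it was for 20.3% of all loci. With 1 C24 library, a low C24 and a high zop1 cannot be told apart by these counts.

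Genes that move iron inside the plant were mixed. The list of iron distribution genes and regulators had 1 of 20 measured members (21 listed) higher and none lower, with 10 above 0, 10 below 0 and a median of -0.01. OPT3 (AT4G16370), a transporter that loads iron into the phloem, had 73.0 FPKM in zop1, 35.2 in prp31, 62.7 in sta1 and 24.99 in C24 (2.92-fold higher). NAS4, a synthase of the metal chelator nicotianamine, had 48.2 FPKM in zop1, 26.7 in prp31, 41.9 in sta1 and 23.9 in C24 (2.01-fold [1.87 to 2.17], difference 0.98). NAS3, another such synthase, had 2.28 FPKM in zop1, 5.204 in prp31, 3.95 in sta1 and 5.28 in C24, a difference of -0.94. So of these synthases NAS4 had a higher value and NAS3 a lower value in zop1 than in C24, and both missed the 2-fold rule, which is set on the log2(FPKM + 1) scale. BTS, a ubiquitin ligase that restrains the iron response, had 30.9 FPKM in zop1 against 15.6 in C24 (difference 0.94). The bHLH factor PYE had 14.8 FPKM in zop1 against 8.94 in C24 (0.66), and FIT, the central factor of root uptake, had 24.7 FPKM in zop1 against 27.8 in C24 (-0.16).

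The root uptake genes that FIT and the Ib factors are known to switch on did not show the rises of the Ib factors. None of 8 measured members was called, 6 lay below 0, and the median was -0.42. IRT1, the main iron importer of the root, had 325 FPKM in zop1, 368 in prp31, 383 in sta1 and 467 in C24, a difference of -0.52. FRO2, the ferric reductase of the root surface, had 61.6 FPKM in zop1, 58.5 in prp31, 71.0 in sta1 and 97.2 in C24 (-0.65). CYP82C4, which makes the coumarin sideretin, had 70.6 FPKM in zop1, 76.6 in prp31, 88.7 in sta1 and 131 in C24 (-0.88). C24 was the highest library for these 3 genes, and the mutants lay closer to each other than to it. IRT2 was the exception with the largest positive value, at 7.08 FPKM in zop1, 3.06 in prp31, 5.34 in sta1 and 3.39 in C24 (0.88).

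Of 7 measured iron storage genes (9 listed), 1 was lower and none higher (median 0.04). VTL5 (AT3G25190), a vacuolar iron transporter-like gene, had 7.75 FPKM in zop1, 13.8 in prp31, 12.03 in sta1 and 23.1 in C24 (2.97-fold lower [2.55 to 3.48]). VTL1 had 2.19 FPKM in zop1 against 4.38 in C24 (-0.75), and VTL2 had 1.35 FPKM in zop1 against 2.49 in C24 (-0.57). The ferritin FER1, which stores iron in plastids, had 257 FPKM in zop1, 182 in prp31, 202 in sta1 and 235 in C24 (0.13). The vacuolar transporter-like genes thus had lower values in zop1, and ferritin did not follow them.

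**Figure D2:**
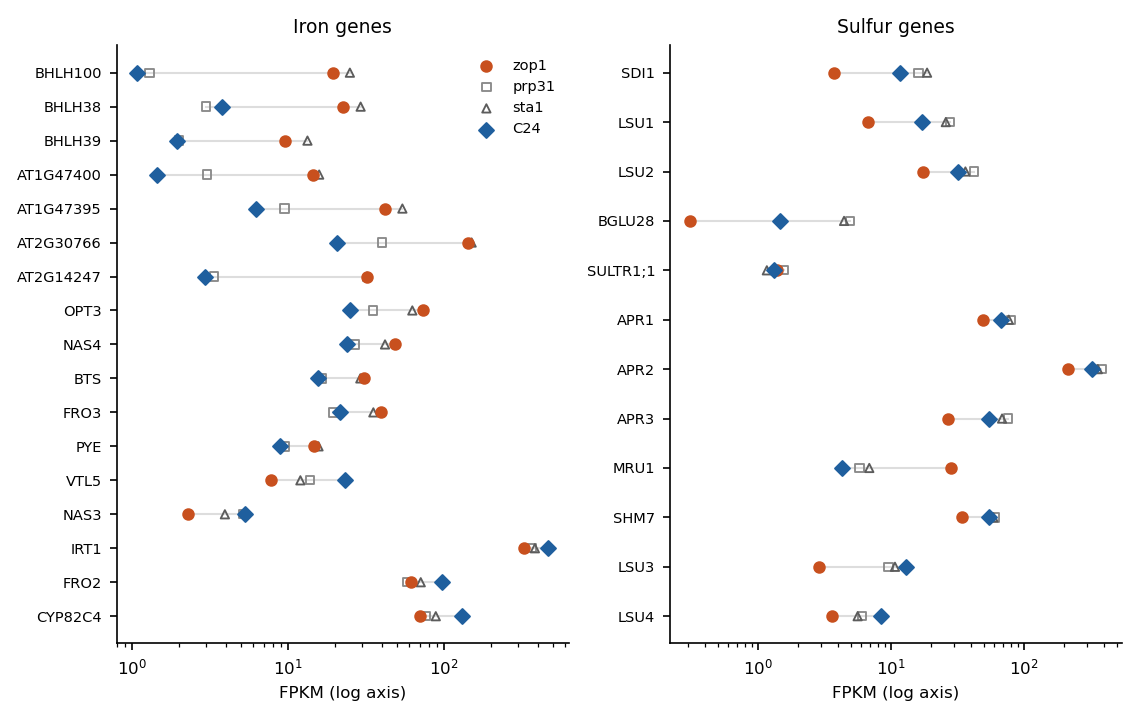
FPKM on a log axis of iron genes (left) and sulfur genes (right), with 1 symbol per library: zop1 (filled circle), prp31 (open square), sta1 (open triangle) and C24 (filled diamond). In the iron panel zop1 lies near sta1 from BHLH100 to PYE (BHLH100 at 19.6 FPKM in zop1 and 1.08 in C24), and in the sulfur panel zop1 lies left of the others for most genes (SDI1 at 3.70 FPKM in zop1 and 11.8 in C24).

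Sulfur-starvation genes mostly had negative differences, and here zop1 stood below prp31 and sta1 as well. Of 10 measured members 3 were lower, 1 was higher, 8 lay below 0, and the median was -0.75. In 8 of the 10 zop1 was the lowest of the 4 libraries, as it was at 26.4% of all loci, and C24 was the highest in none. SDI1 (AT5G48850), a sulfur-deficiency-induced gene that limits glucosinolate synthesis, had 3.70 FPKM in zop1, 16.1 in prp31, 18.7 in sta1 and 11.8 in C24 (3.18-fold lower [2.63 to 3.86]). LSU1 (AT3G49580) had 6.70 FPKM in zop1, 27.8 in prp31, 25.9 in sta1 and 17.1 in C24 (2.55-fold lower). The LSU genes encode small proteins named for their response to low sulfur. APR3, an adenylylphosphosulfate reductase of sulfate assimilation, had 26.9 FPKM in zop1, 76.3 in prp31, 68.6 in sta1 and 55.1 in C24 (2.05-fold lower). Its relatives missed the rule, with APR2 at 215 FPKM in zop1 against 324 in C24 (-0.59) and APR1 at 49.3 FPKM in zop1 against 67.7 in C24 (-0.45). BGLU28, a beta-glucosidase, had 0.310 FPKM in zop1, 4.90 in prp31, 4.44 in sta1 and 1.48 in C24 (-0.92). For SDI1, LSU1, BGLU28 and the APR genes prp31 and sta1 were above C24 and zop1 was below it. With a pseudocount of 5 none of the 10 was called lower.

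The LSU family was added as a list after its values were seen, so its count is a description. Of its 4 members 3 were lower (median -1.13), and zop1 was the lowest library for all 4, as it was at 26.4% of all loci. LSU3 (AT3G49570) had 2.90 FPKM in zop1, 9.61 in prp31, 10.7 in sta1 and 13.0 in C24 (4.47-fold lower [3.09 to 6.65]). LSU4 had 3.601 FPKM in zop1, 6.05 in prp31, 5.62 in sta1 and 8.42 in C24 (2.34-fold lower [1.66 to 3.33]). For LSU3 and LSU4 C24 was the highest library and the other mutants lay between. LSU3 and LSU1 lie 1760 nt apart on chromosome 3, and as close copies they can share reads. The member of the sulfur list that was higher, MRU1 (AT5G35490), is named for a response to the methionine-accumulating mutant mto1. It had 28.4 FPKM in zop1, 5.80 in prp31, 6.88 in sta1 and 4.27 in C24 (6.65-fold higher [5.43 to 8.22]), so zop1 was the single high library.

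MRU1 stood beside other loci that were higher in zop1. AT5G35480 (chromosome 5, 13687847 to 13689596), an uncharacterized protein, had 217 FPKM in zop1, 51.8 in prp31, 51.5 in sta1 and 36.6 in C24 (5.92-fold higher [5.196 to 6.77]). MRU1 begins 220 bases away on the other strand (13689817 to 13690548). AT5G35510 (13698496 to 13700144), annotated as a TIR-NBS-LRR class disease resistance protein, follows after 7947 nt, with 26.55 FPKM in zop1, 6.98 in prp31, 7.88 in sta1 and 6.45 in C24 (4.11-fold higher [1.99 to 9.34]). The bases between the divergent starts of AT5G35480 and MRU1 (chr5:13689597-13689816, plus strand) are shown because both genes were high in zop1 alone; none of the 7 motifs searched stood in them, so there are no capitals.
AT5G35480-MRU1 interval: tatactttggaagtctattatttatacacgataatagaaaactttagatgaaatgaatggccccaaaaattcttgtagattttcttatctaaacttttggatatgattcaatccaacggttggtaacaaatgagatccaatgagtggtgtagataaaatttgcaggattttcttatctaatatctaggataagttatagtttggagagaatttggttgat

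Early stress genes had the lowest median of the gene lists. They are known to be induced within minutes by wounding, elicitors, cold and touch. Of 11 measured AP2/ERF factors (22 listed), DNA-binding factors of ethylene and stress responses, 7 were lower and none higher (median -1.70); with no filter, over the 22 listed, the median was -0.55. AT5G51190 (ERF105) had 3.40 FPKM in zop1, 19.5 in prp31, 5.02 in sta1 and 31.4 in C24 (9.23-fold lower [7.41 to 11.6]). ERF104 had 5.67 FPKM in zop1, 18.7 in prp31, 5.98 in sta1 and 29.9 in C24 (5.27-fold lower [4.52 to 6.16]). ORA47, a factor that acts on jasmonate synthesis genes, had 0.895 FPKM in zop1, 2.002 in prp31, 1.48 in sta1 and 6.94 in C24 (7.75-fold lower [5.16 to 12.1]). ERF5, ERF6, ERF11 and ERF4 were also lower, by 4.39-, 5.16-, 4.37- and 2.67-fold. The member that lay above 0 was RAP2.6, at 8.88 FPKM in zop1, 5.66 in prp31, 8.05 in sta1 and 8.66 in C24. C24 was the highest library at 9 of the 11 genes, as at 31.2% of all loci, and sta1 lay near zop1.

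The zinc-finger repressors of the ZAT and AZF family had 3 of 9 measured members (11 listed) lower and none higher (median -0.79). ZAT10 (AT1G27730, symbol STZ), a repressor induced by salt and cold, had 3.51 FPKM in zop1, 19.2 in prp31, 5.76 in sta1 and 33.9 in C24 (9.67-fold lower [7.91 to 11.9]). ZAT6 had 5.38 FPKM in zop1, 11.8 in prp31, 6.49 in sta1 and 19.3 in C24 (3.59-fold lower [3.04 to 4.27]). ZAT12 had 3.86 FPKM in zop1, 6.14 in prp31, 3.80 in sta1 and 9.73 in C24 (2.52-fold lower [1.996 to 3.21]). In the 3 genes C24 was the high library, prp31 lay between, and zop1 and sta1 were low. AZF2 was not called, at 13.0 FPKM in zop1, 14.3 in prp31, 12.8 in sta1 and 23.2 in C24.

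Genes that act on mRNA in the same response were lower too. CAF1a, a deadenylase that shortens mRNA tails, had 4.26 FPKM in zop1, 21.0 in prp31, 4.78 in sta1 and 34.5 in C24 (8.09-fold lower [6.81 to 9.66]). SZF1, a CCCH zinc-finger gene of the salt response, had 4.68 FPKM in zop1, 12.8 in prp31, 6.06 in sta1 and 22.5 in C24 (4.804-fold lower [4.30 to 5.38]). Their close relatives CAF1b, at 2.83 FPKM in zop1 against 4.73 in C24, and SZF2, at 9.53 FPKM in zop1 against 18.4 in C24, were not called. Of 11 other measured early wound and elicitor genes (13 listed) 4 were lower and none higher (median -0.93). DIC2, a mitochondrial dicarboxylate carrier, had 2.84 FPKM in zop1, 12.3 in prp31, 3.1965 in sta1 and 28.7 in C24 (10.1-fold lower [8.36 to 12.4]). ACS6, an enzyme of ethylene synthesis, had 7.46 FPKM in zop1, 17.0 in prp31, 8.36 in sta1 and 24.8 in C24 (3.33-fold lower [3.01 to 3.69]). The kinase gene MKK9 was 2.79-fold lower [2.44 to 3.19] and SIB1, a sigma factor binding protein, 2.53-fold lower [1.92 to 3.35]. MPK3, a kinase of the same cascades, had 40.0 FPKM in zop1 against 63.8 in C24 (-0.66), and the oxidase RBOHD had 17.5 FPKM in zop1 against 16.5 in C24 (0.08), so neither was called.

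The 250 bases before the starts of DIC2 and ZAT10, the genes with the largest falls, are shown with a motif that each holds. Capitals mark CGCGTT in DIC2 (chr4:12686209-12686458, plus strand), 139 bases before the start, a sequence that CAMTA factors of the early stress response are known to bind. In ZAT10 (chr1:9649324-9649573, minus strand) they mark GGCGGC, the reverse complement of the ERF-binding sequence GCCGCC, 82 bases before the start.
DIC2: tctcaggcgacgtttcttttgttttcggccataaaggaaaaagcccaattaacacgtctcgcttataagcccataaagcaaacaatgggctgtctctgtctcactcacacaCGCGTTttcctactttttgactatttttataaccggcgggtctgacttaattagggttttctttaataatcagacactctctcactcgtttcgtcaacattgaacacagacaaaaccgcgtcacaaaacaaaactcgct
ZAT10: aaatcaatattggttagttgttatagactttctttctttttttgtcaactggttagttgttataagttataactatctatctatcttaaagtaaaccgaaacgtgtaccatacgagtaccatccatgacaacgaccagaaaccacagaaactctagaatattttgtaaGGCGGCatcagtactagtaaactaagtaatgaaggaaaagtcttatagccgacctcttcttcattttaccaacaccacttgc
CGCGTT stood before 10 of the 190 lower loci (5.26%) and 1 of the 121 higher loci (0.826%), against 2.62% of the 18518 loci, and GCCGCC before 3.16% of the lower and 0.826% of the higher loci, against 1.91%. Most early stress genes lacked both. CGCGTT stood before 0 of 11 AP2/ERF, 0 of 9 ZAT and AZF, 0 of 4 CAF1 and SZF and 1 of 11 other wound and elicitor genes. It stood before 2 of 7 touch and 1 of 23 WRKY genes. GCCGCC stood before 2 of 11 AP2/ERF, 2 of 9 ZAT and AZF, 0 of 4 CAF1 and SZF and 1 of 11 other wound and elicitor genes. It stood before 0 of 7 touch and 3 of 23 WRKY genes. The W-box core TTGACC stood before 11.6% of the higher and 13.7% of the lower loci, against 12.1%. ACGTGGC, which can overlap CACGTG, stood before 4.13% of the higher and 3.68% of the lower loci, against 3.99%. GNATATNC, of promoters of phosphate-starvation genes, stood before 6.61% of the higher and 7.89% of the lower loci, against 5.45%. AAAATATCT, the evening element of the clock, stood before 4.13% of the higher and 3.68% of the lower loci, against 2.44%.

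WRKY factors, regulators of immunity and senescence, did not move as a group. Of 23 measured, 2 were lower and 1 higher, with a median of -0.09. WRKY40 had 1.17 FPKM in zop1, 3.64 in prp31, 1.32 in sta1 and 4.84 in C24 (4.15-fold lower [3.02 to 5.80]), and WRKY33 had 19.7 FPKM in zop1, 33.0 in prp31, 18.1 in sta1 and 44.4 in C24 (2.26-fold lower [2.12 to 2.41]). WRKY70, a factor of salicylic acid signalling, went the other way, with 128 FPKM in zop1, 60.9 in prp31, 25.1 in sta1 and 50.9 in C24 (2.51-fold higher [2.39 to 2.64]). Here zop1 was the highest library and sta1 the lowest. Of the 7 measured touch and calmodulin-like genes none was called, but all 7 lay below 0 (median -0.63). TCH4, a cell wall enzyme induced by touch, had 5.92 FPKM in zop1, 11.0 in prp31, 6.03 in sta1 and 12.3 in C24 (-0.94).

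**Figure D3:**
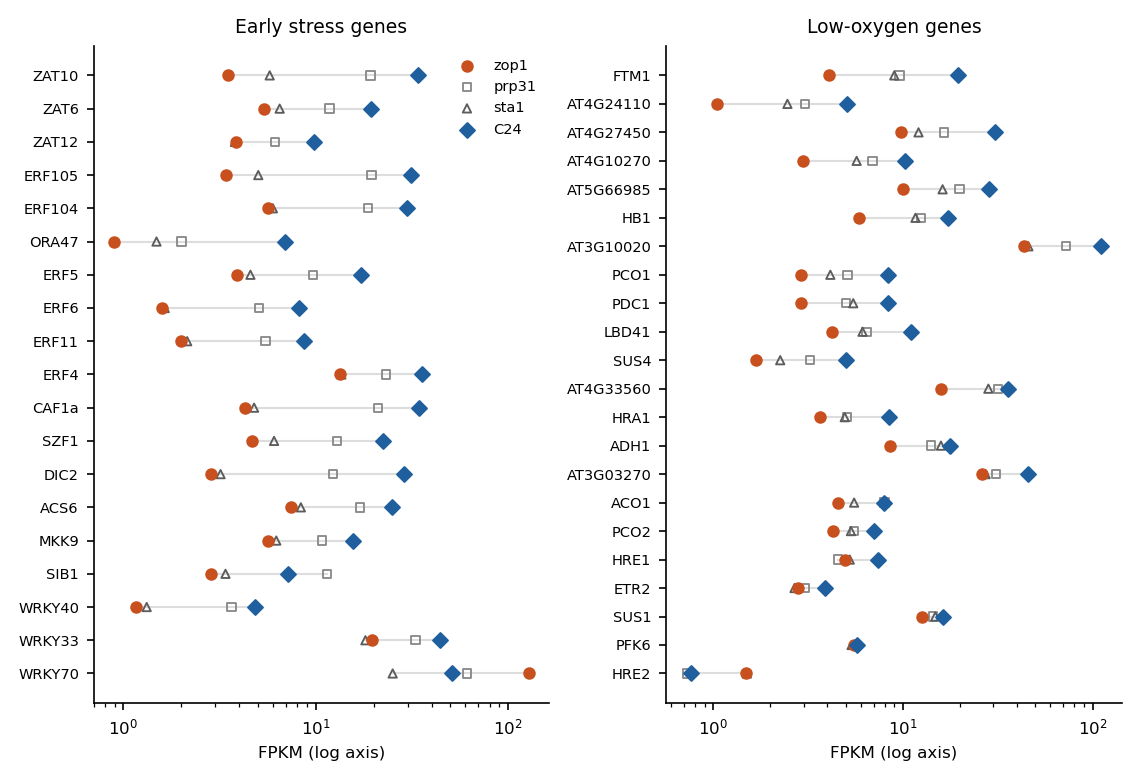
FPKM on a log axis of early stress genes (left) and genes of the low-oxygen list (right), with 1 symbol per library: zop1 (filled circle), prp31 (open square), sta1 (open triangle) and C24 (filled diamond). C24 lies at the right end for most genes of both panels (DIC2 at 2.84 FPKM in zop1 and 28.7 in C24), and WRKY70, at 128 FPKM in zop1 and 50.9 in C24, runs the other way.

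Many genes induced by low oxygen were lower in zop1, in a list put together after values were seen, so its count is a description. Of 22 measured members (25 listed) 13 were lower and none higher, 21 lay below 0, and the median was -1.14; with a pseudocount of 5, 5 were lower. FTM1 (AT1G43800), a stearoyl-ACP desaturase, had 4.07 FPKM in zop1, 9.62 in prp31, 9.01 in sta1 and 19.6 in C24 (4.82-fold lower [3.88 to 6.02]). HB1, a plant haemoglobin, had 5.85 FPKM in zop1, 12.4 in prp31, 11.7 in sta1 and 17.2 in C24 (2.95-fold lower [2.46 to 3.55]). PDC1, the pyruvate decarboxylase of ethanol fermentation, had 2.92 FPKM in zop1, 5.03 in prp31, 5.47 in sta1 and 8.33 in C24 (2.85-fold lower [2.46 to 3.32]). These genes shared an order in which zop1 was lowest, the other mutants lay between, and C24 was highest. SUS4, a sucrose synthase, was 2.97-fold lower [2.50 to 3.53], and PCO1, a cysteine oxidase that senses oxygen, was 2.86-fold lower [2.32 to 3.54]. LBD41 and HRA1, transcriptional regulators, were 2.63-fold [2.09 to 3.32] and 2.31-fold [1.97 to 2.71] lower. ADH1, the alcohol dehydrogenase, at 8.52 FPKM in zop1, was 2.09-fold below C24 [1.87 to 2.34] and just short of the rule (-0.98). The member above 0 was HRE2, an ERF of the low-oxygen response, at 1.49 FPKM in zop1, 0.726 in prp31, 1.504 in sta1 and 0.762 in C24. The zop1 library was the lowest at 18 of the 22 genes, as at 26.4% of all loci, and C24 the highest at 20, as at 31.2% of all loci. The part of the C24 library in these differences was not tested.

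Salicylic acid and immunity genes had 3 of 17 measured members lower and none higher (median -0.36). PCR1, a cadmium resistance gene, had 5.70 FPKM in zop1, 9.97 in prp31, 2.69 in sta1 and 26.3 in C24 (4.61-fold lower [3.82 to 5.60]). LURP1, a gene of the response to an oomycete pathogen, had 100.4 FPKM in zop1, 322 in prp31, 64.2 in sta1 and 215 in C24 (2.14-fold lower). For LURP1 prp31 was the highest library and sta1 the lowest. PR1, a marker of salicylic acid signalling, had 56.9 FPKM in zop1, 34.3 in prp31, 16.4 in sta1 and 125 in C24 (2.203-fold lower [2.07 to 2.35]). ICS1, the enzyme that starts salicylic acid synthesis, had 22.8 FPKM in zop1, 22.5 in prp31, 20.1 in sta1 and 19.2 in C24, so it was close to equal in all libraries.

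The JAZ repressors of jasmonate signalling had no called member among 10, and 8 of them lay above 0 (median 0.25). In 8 of the 10 zop1 was the highest library, as it was at 31.3% of all loci. JAZ2 had 37.3 FPKM in zop1, 29.2 in prp31, 29.4 in sta1 and 27.2 in C24 (0.44), and JAZ4 had the largest difference, with 1.89 FPKM in zop1 against 3.11 in C24 (-0.51). Of 11 genes of jasmonate synthesis and output none was called (median 0.03), with MYC2, the main jasmonate factor, at 26.47 FPKM in zop1, 28.4 in prp31, 23.8 in sta1 and 40.6 in C24 (-0.60). None of the 8 camalexin and indole glucosinolate genes (median 0.30) and none of the 10 aliphatic glucosinolate genes (0.16) was called. PAD3, the last enzyme of camalexin synthesis, had 0.963 FPKM in zop1 against 2.86 in C24 (-0.98), and FMOGS-OX1, which modifies glucosinolate side chains, had 66.6 FPKM in zop1 against 41.1 in C24 (0.68).

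Cold, dehydration and abscisic acid genes were mixed. Of 11 cold and dehydration genes 1 was lower and none higher (median -0.11), and of 13 abscisic acid genes none was called (-0.02). COR15A, a chloroplast protein of cold acclimation, had 22.7 FPKM in zop1, 35.2 in prp31, 37.8 in sta1 and 52.7 in C24 (2.32-fold lower). RD29A, often used as a reporter of the same pathway, had 43.8 FPKM in zop1, 29.2 in prp31, 32.9 in sta1 and 24.8 in C24 (0.80), so these targets of the pathway had differences of opposite sign. The dehydrin RAB18 had 43.0 FPKM in zop1, 44.4 in prp31, 42.6 in sta1 and 86.2 in C24 (-0.99). NCED3, which controls abscisic acid synthesis, had 16.7 FPKM in zop1 against 31.3 in C24 (-0.87), while the phosphatase ABI1, which holds abscisic acid signalling back, had 113 FPKM in zop1 against 67.5 in C24 (0.73).

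Phosphate-starvation genes had 2 of 17 measured members higher and none lower, 14 above 0, and a median of 0.41. PS2, a pyrophosphate-specific phosphatase, had 29.0 FPKM in zop1, 42.9 in prp31, 31.6 in sta1 and 11.5 in C24 (2.52-fold higher [2.18 to 2.92]). PEPC1, a phosphoethanolamine and phosphocholine phosphatase, had 8.33 FPKM in zop1, 13.3 in prp31, 9.35 in sta1 and 2.82 in C24 (2.96-fold higher). SPX1, a phosphate sensor, had 44.9 FPKM in zop1 against 24.9 in C24 (0.83). C24 was the lowest library for 12 of the 17 genes, as at 20.3% of all loci, and zop1 the highest for 1, as at 31.3%. The part of the C24 library in these differences was not tested. The 11 nitrate genes had no called member (median -0.26). The 9 copper and superoxide dismutase genes had none either (-0.07), with FSD1, the iron superoxide dismutase, at 999.9 FPKM in zop1 against 1278 in C24 (-0.35).

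A few members were called in other stress lists. UGT74E2, a glycosyltransferase of the mitochondrial stress response, had 6.42 FPKM in zop1, 5.16 in prp31, 16.2 in sta1 and 2.26 in C24 (2.84-fold higher [2.34 to 3.48]). It was 1 of 8 in a list with 6 above 0 and a median of 0.36. In that list C24 was the lowest library for 6, as it was at 20.3% of all loci. Of 14 DNA damage genes 2 were higher (median 0.21). NAC044, a factor that halts the cell cycle after damage, had 6.91 FPKM in zop1, 3.51 in prp31, 5.87 in sta1 and 1.07 in C24 (6.47-fold higher [4.87 to 8.72]). SMR7, an inhibitor of cyclin-dependent kinases, had 2.64 FPKM in zop1 against 0.793 in C24, from 11 and 4 reads, and its interval of 0.986 to 14.3 included 1. The 14 cell cycle genes had no call, a median of 0.20 and 11 members above 0. HSP17.6II, a small heat shock protein, had 2.57 FPKM in zop1, 2.32 in prp31, 3.26 in sta1 and 0.490 in C24 (5.24-fold higher [2.76 to 10.8]), 1 of 11 in a list with a median of -0.05. The 7 genes of the unfolded protein response had no call (-0.06).

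Photosynthesis genes had small differences that mostly ran one way. None of 18 was called, 15 lay below 0, and the median was -0.22. The zop1 library was the lowest for 15, as it was at 26.4% of all loci. LHCB1.1, a light-harvesting protein of photosystem II, had 2450.5 FPKM in zop1, 3361 in prp31, 3301 in sta1 and 3372 in C24 (-0.46). LHCB3, another, had 3796 FPKM in zop1, 4724 in prp31, 4808 in sta1 and 4488 in C24. RBCS1B, a small subunit of Rubisco, lay above 0, at 2019.8 FPKM in zop1, 1778 in prp31, 1980.3 in sta1 and 1372 in C24 (0.56). The lists of the circadian clock (12 measured, median 0.01), flavonoids and anthocyanin (12, 0.01), auxin response (15, -0.08) and root markers (10, 0.01) had no called member.

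The listed genes of the splicing and silencing machinery, for the processes ZOP1 is tied to, did not reach the 2-fold rule. None of 15 spliceosome genes (median -0.01), 20 SR splicing factors (0.07), 25 genes of the silencing machinery (-0.06) and 7 of DNA demethylation (-0.02) was called. RDM16, a splicing factor that also acts in DNA methylation, had 20.9 FPKM in zop1, 22.1 in prp31, 23.2 in sta1 and 15.6 in C24 (0.40). RS31a, an SR factor, had 7.56 FPKM in zop1 against 5.31 in C24 (0.44). MOM1, a silencing factor, had 8.61 FPKM in zop1, 5.67 in prp31, 5.94 in sta1 and 5.63 in C24 (0.54), with zop1 as the single high library. ROS1, the DNA demethylase, had 9.38 FPKM in zop1, 6.92 in prp31, 3.95 in sta1 and 11.7 in C24 (-0.29). SDC, an F-box gene that DNA methylation keeps silent, had 5.76 FPKM in zop1, 3.74 in prp31, 2.52 in sta1 and 1.64 in C24 (3.51-fold higher [2.77 to 4.46]). Every mutant library was above C24 for SDC, and zop1 was highest. QQS, the other silenced locus listed, had a mean under 1 FPKM and was not compared.

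**Figure D4:**
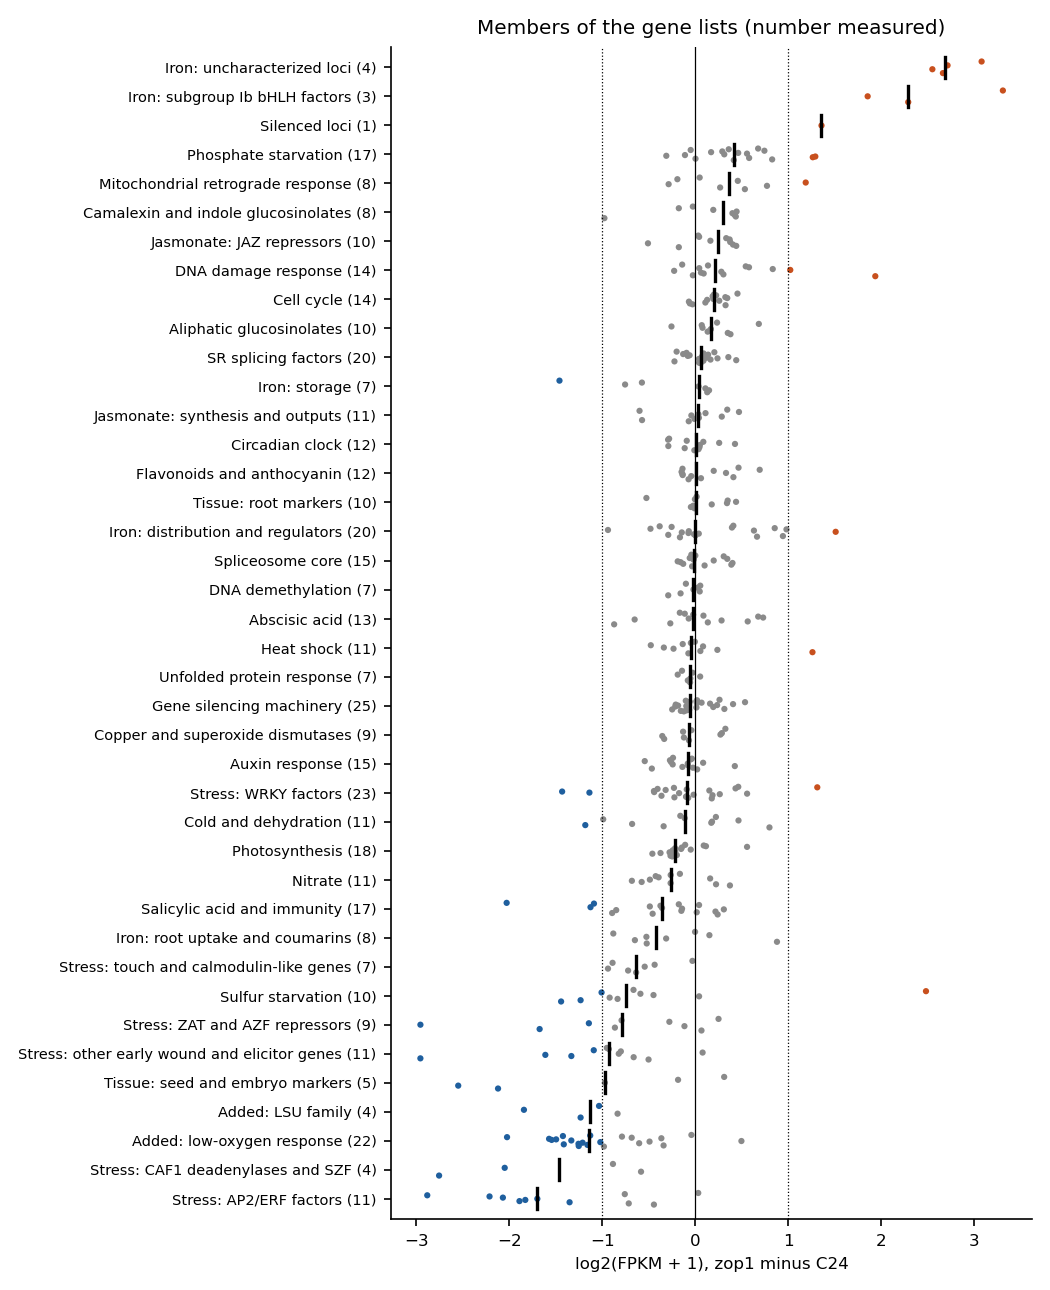
Each row is a gene list with its number of measured genes, and each point a gene, with its difference on the log2(FPKM + 1) scale, zop1 minus C24, across the page; orange is higher and blue lower by the 2-fold rule, and a black bar marks the median. The bHLH Ib list (median 2.29) lies near the top and the AP2/ERF list (-1.70) at the bottom, while spliceosome core (-0.01) and silencing genes (-0.06) lie around 0.

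Gene families were also read from the symbols: of 189 families with at least 8 measured members, 156 had none called. Families named for a high share of lower members included GSTF, ERF, NUDT and RTFL. In GSTF, glutathione transferases of the phi class, 4 of 10 were lower (median -0.22). GSTF14 had 8.82 FPKM in zop1, 46.7 in prp31, 14.3 in sta1 and 27.8 in C24 (3.15-fold lower [2.76 to 3.61]), and GSTF2 had 346 FPKM in zop1, 829 in prp31, 356 in sta1 and 829 in C24 (2.40-fold lower). GSTF7 had 6.99 FPKM in zop1, 24.5 in prp31, 24.7 in sta1 and 19.8 in C24 (2.83-fold lower [2.42 to 3.32]), and its neighbour GSTF6 had 19.3 FPKM in zop1 against 47.9 in C24 (2.48-fold lower). For GSTF2 and GSTF14 sta1 was low as well, but for GSTF6 and GSTF7, close copies that can share reads, zop1 was the single low library. In NUDT, Nudix hydrolases, 3 of 18 were lower (median -0.13), of which NUDT6 had 3.998 FPKM in zop1, 11.6 in prp31, 3.83 in sta1 and 14.7 in C24 (3.68-fold lower [2.92 to 4.68]). The stem NUDX, counted apart, had 9 measured members, all 9 below 0 and none called (median -0.11). RTFL had 2 lower members and 1 higher of 14, but RTFL13 was listed at 0 in every mutant and the higher RTFL14 was listed at 0 in sta1 and rests on 4 reads in zop1 and 2 in C24 [0.347 to 26.8]. Among higher loci the symbol family with the highest share was bHLH (3 of 11, the Ib genes above). The bHLH symbols cover part of the family. Of 80 measured loci with the bHLH superfamily product name 3 were higher, 40 lay above 0 and 40 below (median -0.002). Next came ASG, GA and SWEET with 1 of 8 each and PRP with 1 of 9, so these last shares are single genes. SAG29 (SWEET15), also higher (1.37), carries another symbol and is not counted under SWEET. The PRP symbols mix proline-rich proteins with splicing factors, and the ASG symbols mix unrelated products, among them a kinase, a helicase and a homeodomain-like protein. GA2OX2, an enzyme that inactivates gibberellin, had 5.06 FPKM in zop1, 1.77 in prp31, 2.41 in sta1 and 1.57 in C24 (3.22-fold higher). SWEET2, a sugar transporter, had 23.5 FPKM in zop1, 11.6 in prp31, 13.8 in sta1 and 10.1 in C24 (2.32-fold higher [2.12 to 2.54]), and the proline-rich cell wall protein PRP1 was 2.40-fold higher [2.23 to 2.59].

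RHS and extensin genes mostly had positive differences, in groups chosen after values were seen. All 9 measured RHS genes, named root hair specific, lay above 0 (median 0.57) though none was called. For 8 of them zop1 was the highest library, as it was at 31.3% of all loci. RHS19 had 41.9 FPKM in zop1, 29.1 in prp31, 41.7 in sta1 and 27.9 in C24 (0.57). Of 6 measured extensins, structural cell wall proteins, 2 were higher (median 0.92). EXT12 had 114 FPKM in zop1, 51.2 in prp31, 98.5 in sta1 and 46.3 in C24 (2.47-fold higher), and EXT13 had 170.0 FPKM in zop1, 91.1 in prp31, 138 in sta1 and 83.1 in C24 (2.05-fold higher). EXT3, at 1783 FPKM in zop1 and 1817 in C24, did not follow them (-0.03). Over 19 loci with extensin-like anywhere in the product name, 2 were higher and 12 lay above 0 (median 0.43). These take in the receptor kinases PERK1 and PERK10 and other products that are not named proline-rich. EXPA16, an expansin that loosens walls, had 12.2 FPKM in zop1, 2.79 in prp31, 13.7 in sta1 and 2.19 in C24 (5.56-fold higher [4.46 to 7.01]). Its family did not follow it: of 16 measured EXPA genes 1 was higher, 8 lay above 0 and 8 below (median 0.006). For EXT12 and EXPA16 the sta1 library was near zop1, and prp31 near C24.

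Some small secreted proteins of defence stood among the higher loci, and others did not. Of 8 measured loci with the product name defensin-like family protein 3 were higher (median 0.65), out of 230 product families with at least 8 measured members, of which 173 had none called. This family had the highest median of the 230 and the TIR domain family below the lowest. Both were picked after values were seen. AT1G13609 had 36.7 FPKM in zop1, 1.77 in prp31, 35.6 in sta1 and 0.582 in C24 (63.2-fold higher), the largest difference of any locus named here (4.58). Its neighbour AT1G13608, 269 nt away, had 4.47 FPKM in zop1, 0.370 in prp31, 4.098 in sta1 and 0.820 in C24, from 9 reads in zop1 and 2 in C24 [1.13 to 51.8]. Of 15 measured loci with a protease or trypsin inhibitor product, a group picked after values were seen, 4 were higher and none lower (median 0.27). TI1, a trypsin inhibitor, had 37.1 FPKM in zop1, 8.56 in prp31, 33.9 in sta1 and 10.3 in C24 (3.59-fold higher [2.97 to 4.36]). UPI, an unusual serine protease inhibitor, had 17.56 FPKM in zop1, 4.30 in prp31, 8.78 in sta1 and 5.36 in C24 (3.28-fold higher [2.53 to 4.27]), and AT5G43570, which lies 159 nt from it, was 5.09-fold higher [3.24 to 8.31]. The fourth was AT1G73325, at 14.7 FPKM in zop1, 9.26 in prp31, 11.7 in sta1 and 5.46 in C24 (2.69-fold higher [2.17 to 3.35]). Among resistance proteins, the 8 measured loci named TIR domain family protein all lay below 0 (median -0.64), with 1 lower, while the 37 named disease resistance protein (TIR-NBS-LRR class) family had no call (-0.12). AT5G35510, described above, carries another product name and is not among the 37.

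The remaining loci with the largest rises were of mixed function. GPT2, a plastid translocator of glucose 6-phosphate, had 13.3 FPKM in zop1, 4.93 in prp31, 5.34 in sta1 and 2.81 in C24 (4.73-fold higher [4.03 to 5.58]). AT2G04050, a MATE-type efflux protein, had 7.83 FPKM in zop1, 3.301 in prp31, 11.0 in sta1 and 1.08 in C24 (7.28-fold higher [5.59 to 9.62]). AT5G05250, uncharacterized, had 45.0 FPKM in zop1, 17.9 in prp31, 52.2 in sta1 and 11.1 in C24 (4.03-fold higher [3.61 to 4.51]). GPT2 was highest in zop1, and the other genes were highest in sta1. Among the falls, seed storage proteins had 2 of 5 measured seed markers lower (median -0.97). CRU3, a cruciferin, had 0.0900 FPKM in zop1, 3.02 in prp31, 0.229 in sta1 and 5.37 in C24, and CRA1, another, had 0.643 FPKM in zop1, 1.63 in prp31, 1.47 in sta1 and 6.14 in C24. Of 14 listed seed and embryo markers 9 missed the filter, and OLEO1, an oil body protein, had 0.349 FPKM in zop1, 1.28 in prp31, 2.88 in sta1 and 1.64 in C24 (-0.97). AT4G13575, uncharacterized, had 5.17 FPKM in zop1, 20.9 in prp31, 32.9 in sta1 and 33.9 in C24 (6.55-fold lower [5.37 to 8.05]), with zop1 as the single low library. AT4G27280, a calcium-binding EF-hand protein, had 15.2 FPKM in zop1, 46.2 in prp31, 14.9 in sta1 and 67.2 in C24 (4.42-fold lower [3.89 to 5.03]). AT5G45630 was 6.52-fold lower [4.62 to 9.45] and AT1G07135 6.99-fold lower [3.92 to 13.5], both with zop1 as the lowest library.

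Protein-coding loci of at least 300 nt that were listed at 0 in 1 of the 2 libraries numbered 7 among the higher and 6 among the lower, and no fold is given for them. AT3G29633 and AT3G04854 had 16.7 and 8.70 FPKM in zop1 and were listed at 0 in prp31, sta1 and C24. AT3G51644 was listed at 0 in zop1 and sta1, with 2.42 FPKM in prp31 and 18.8 in C24 from 7 C24 reads. RTFL13 was listed at 10.5 FPKM in C24 and at 0 in the mutants. The 279 loci of the chloroplast and mitochondrial genomes stood at 0 in all 4 libraries, so a value of 0 in the table need not be a measured absence.

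Of the 18518 protein-coding loci, 31 (0.167%) were at least 2-fold higher in zop1 than in each of the other libraries and 20 (0.108%) at least 2-fold lower, on the log2(FPKM + 1) scale. These loci single out the zop1 library and do not rest on C24 alone, but some rest on few reads. Among the lower ones MIF3 had 0 reads in zop1 and 4 in C24, AT2G01310 0 and 2, and AT4G05091 0 and 1. AT4G25707, annotated as a splicing factor 3A subunit and not in the splicing lists, had 11.3 FPKM in zop1 and 28.0 in C24. It rests on 2 and 6 reads, and its interval of 0.443 to 25.1 included 1. Among the higher ones AT3G29633 and AT3G04854 were listed at 0 in every other library. KNAT3, a KNOX-type homeobox factor, had 255 FPKM in zop1, 78.4 in prp31, 91.4 in sta1 and 80.3 in C24 (3.17-fold higher than C24). ATAF1, a NAC factor of stress and abscisic acid responses, had 113 FPKM in zop1, 35.3 in prp31, 38.2 in sta1 and 40.7 in C24 (2.79-fold higher [2.65 to 2.93]). CYP88A3, an enzyme of gibberellin synthesis, had 15.6 FPKM in zop1, 5.65 in prp31, 5.03 in sta1 and 4.72 in C24 (3.31-fold higher [2.97 to 3.71]). In each the other 3 libraries lay close together. AT1G67310, a calmodulin-binding transcription activator, had 30.4 FPKM in zop1, 10.6 in prp31, 9.71 in sta1 and 11.2 in C24 (2.72-fold higher [2.56 to 2.89]). SAG29, the sugar transporter SWEET15 of senescence, had 359.9 FPKM in zop1, 66.8 in prp31, 165 in sta1 and 139 in C24 (2.596-fold higher), and POLH, a DNA polymerase of translesion synthesis, had 7.20 FPKM in zop1 against 2.66 in C24 (2.70-fold higher). BASL, which sets asymmetric divisions in the stomatal lineage, was 2.91-fold higher, and TCX2, a factor of the same lineage, 2.28-fold higher.

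Among the loci lowest in zop1 by 2-fold were LSU1, LSU3, SDI1, APR3, GSTF6 and GSTF7, described above. GATB, a subunit of the organellar glutamyl-tRNA amidotransferase, had 9.81 FPKM in zop1, 23.1 in prp31, 24.3 in sta1 and 24.2 in C24 (2.47-fold lower). GRP3S, a glycine-rich protein, had 64.1 FPKM in zop1, 166 in prp31, 152 in sta1 and 149.6 in C24 (2.33-fold lower). AT4G33720 had 0.978 FPKM in zop1, 5.49 in prp31, 10.7 in sta1 and 5.13 in C24 (5.24-fold lower [3.36 to 8.53]). LSU1, LSU3, SDI1 and APR3 make up 4 of these 20 loci. No share of sulfur genes over all loci was computed to set beside this count. The LSU list was added after its values were seen, and LSU1 and LSU3 can share reads.

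**Figure D5:**
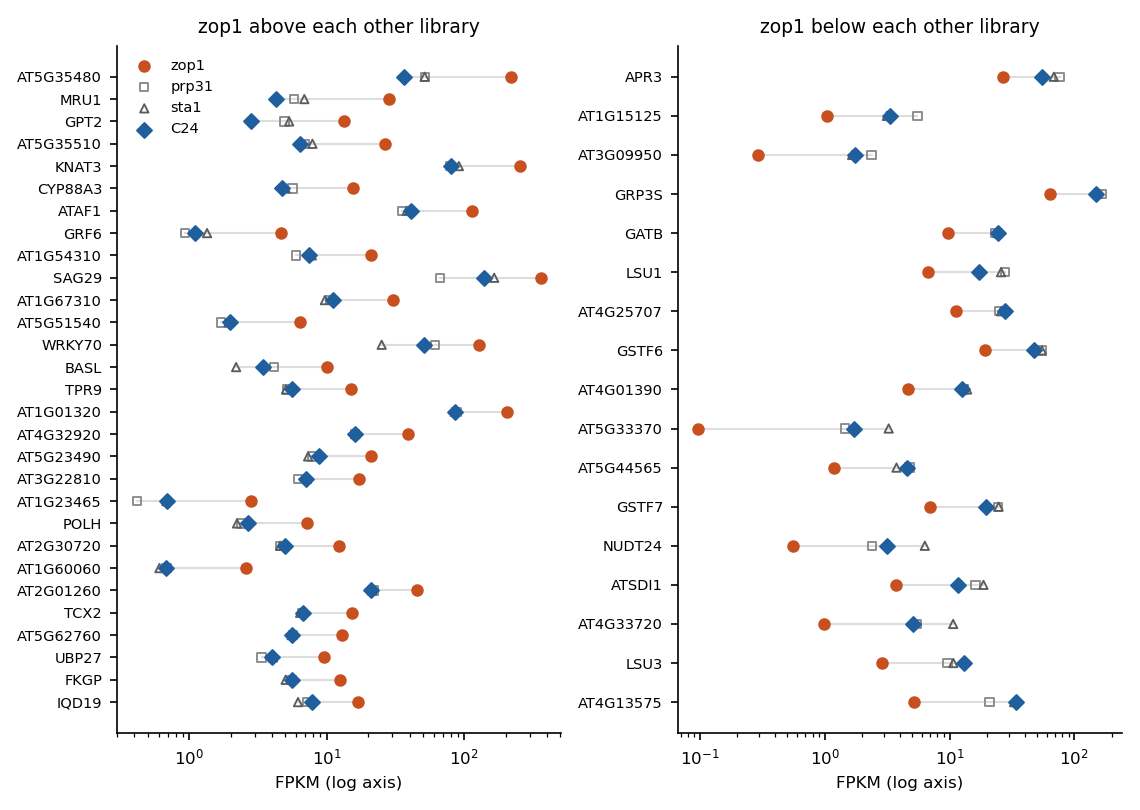
FPKM on a log axis of the loci that were at least 2-fold above (left) or below (right) every other library in zop1, with 1 symbol per library: zop1 (filled circle), prp31 (open square), sta1 (open triangle) and C24 (filled diamond). Loci listed at 0 in any library are not drawn; KNAT3 (255 FPKM in zop1, 80.3 in C24) and GATB (9.81 FPKM in zop1, 24.2 in C24) are examples in which prp31, sta1 and C24 lie together.

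Some called loci were neighbours on the chromosome. Among the 121 higher loci 8 adjacent pairs were found, which take in 15 loci (12.4%), and among the 190 lower loci 7 pairs with 14 loci (7.37%). No share for equal numbers of loci drawn from all those compared was computed, so these shares have no background beside them. Beside those given above, the higher pairs included bHLH38 and bHLH39 (1144 nt apart), AT1G47395 and AT1G47400 (1876 nt), and the MATE-type genes DTX1 and AT2G04050 (629 nt). DTX1 had 2.06 FPKM in zop1, 1.62 in prp31, 4.43 in sta1 and 0.425 in C24 (4.84-fold higher [3.18 to 7.61]). The lower pairs included GSTF7 and GSTF6 (1107 nt) and LSU3 and LSU1 (1760 nt). Many of these pairs are copies of one gene, and the table does not tell reads shared between copies from reads of each.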

How the data were processed

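The authors deposited 1 table of FPKM with 34133 loci and 1 column for each of the 4 libraries. The submitters' processing notes name the build TAIR10 and, as tools, Cufflinks 2.0.1, Cuffdiff, Bowtie and TopHat2 2.0.12; settings and strandedness are not given in the sources used, so overlapping antisense genes and close copies could not be told apart. Groups came from the titles and genotype labels.

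Levels were compared over loci that averaged 1 FPKM or more, as log2(FPKM + 1), a scale on which low genes differ by less than their ratio. With 1 library per group there is no test. The RefSeq annotation of TAIR10.1 gave symbols, products and positions for 31416 loci, and 110 compared loci were missing from it. Low FPKM of a locus are whole multiples of 1 read, and this gave reads for 17428 (70.8%) of the 24606 loci above 0 in more than 1 library, and totals, in units of 1000000 reads, of 40.7 (zop1), 54.5 (prp31), 44.3 (sta1) and 49.2 (C24), as lower bounds. Reads give the exact 95% binomial intervals and nothing else. Between 19066 (sta1) and 19188 (zop1) loci reached 1 FPKM.

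The members and the 39 gene lists (490 genes) were chosen with earlier results of these data known, and 2 lists were added after values were seen. Named genes are ZOP1, PRP31 and STA1, the 15 largest rises and the 15 largest falls among protein-coding loci of at least 300 nt above 0 in both libraries, called members of each list (or the one with the largest difference), members of the 5 symbol families with the highest called share in each direction, and the 5 highest loci at 0 in 1 library; families and lists are in part summarised, and 1 family is not reported here. Groups said to be chosen after values were seen lie outside this rule, as do genes named as contrast to a called one. Alternatives changed the pseudocount, the filter, the scaling and the locus classes. Steps were checked on simulated data and run in Python 3.11.15 with numpy 2.4.6, pandas 2.3.3, scipy 1.17.1 and matplotlib 3.10.9.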

Additional observations from a re-analysis of the deposited data

How the results depend on the processing

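No paired analysis was possible because each group has 1 library, and no replicate could be left out. The counts of higher and lower loci, 184 and 247, became 289 and 389 with a pseudocount of 0.1 and 80 and 100 with a pseudocount of 5. With a mean of at least 5 FPKM 123 loci were higher and 159 lower, and with only protein-coding loci of at least 300 nt 121 and 190. Fewer loci enter by construction in these last settings. The counts stayed within 1.5 times of the reported ones with no filter on low values (213 and 271), with median-of-ratios scaling (189 and 238), with upper-quartile scaling (195 and 230) and, chosen after seeing the data, over loci above 0 in both libraries (147 and 203). Of 74 named loci all kept their sign in each setting that held them (61 with a mean of at least 5 FPKM). Of the 71 that met the 2-fold rule, 46 met it with a pseudocount of 5, 70 with median-of-ratios scaling and 69 with upper-quartile scaling; of the 58 with a mean of at least 5 FPKM all 58 met it, and all 71 did in the remaining settings. Of 42 medians, those of the lists and of all loci, 17 moved by 0.1 or more with a pseudocount of 5, 10 with a pseudocount of 0.1, 11 with no filter and 9 with a mean of at least 5 FPKM, and none did in the other settings. With a pseudocount of 5 the median was 1.64 for the Ib bHLH factors, -0.999 for the AP2/ERF factors, -0.59 for sulfur starvation and -0.74 for low oxygen. With no filter it was -0.28 for the ZAT and AZF list, -0.55 for AP2/ERF and -0.01 for seed markers. The median for cold and dehydration was 0.17 with a mean of at least 5 FPKM and that for heat shock 0.06 with no filter, both of the other sign than reported; other changes of sign were in medians within 0.1 of 0. Of 82 counts of called list members 11 moved by over 1.5 times with a pseudocount of 5, and the seed, LSU, WRKY and phosphate lists then had 1 called member each in the direction given, the wound and elicitor list 2 and the low-oxygen list 5; sulfur starvation had none lower, and the mitochondrial, DNA damage, heat shock and silenced-locus lists had none higher. The AP2/ERF list had 4 lower with a mean of at least 5 FPKM. Depth limits low loci: SMR7 rests on 11 reads in zop1 and 4 in C24.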
